A study of Rattus norvegicus with 11 samples.

Results

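The Wnt ligands, their Frizzled and Lrp receptors, their secreted inhibitors and a few proteins that carry the signal inside the cell were examined in rat lung. Members were the probe sets whose single gene symbol began with Wnt, Fzd, Sfrp or Dkk and a digit, or was Wif1, Frzb, Lrp5, Lrp6, Ctnnb1, Axin1, Axin2, Lef1, Tcf7, Tcf7l2, Ror1 or Ror2. The rule found 59 probe sets for 36 genes, out of 31042 probe sets and 14217 named genes on the array. They comprised 13 ligands, 9 receptors, 8 secreted inhibitors and 6 proteins inside the cell. The rule found 0 probe sets for Ror1 and Ror2. A gene with several probe sets is represented by the one of highest mean signal unless stated, and 15 genes had several.

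Lungs came from Dahl salt-sensitive rats, a strain bred for hypertension on a high-salt diet, of 250 to 350 g, whose pulmonary vessels had been perfused before RNA extraction. The hypoxia with SU5416 group (3 arrays) breathed about 9.5% oxygen and was given SU5416, an inhibitor of the receptors for vascular endothelial growth factor. The hypoxia group (4 arrays) breathed the same gas with vehicle, and the normoxia group (4 arrays) breathed room air with vehicle. Lungs were taken at 3.5 weeks, and a group also given sorafenib was not analysed here. No group analysed here received SU5416 in room air, so the comparison of hypoxia with SU5416 against normoxia holds both exposures together. The labels do not say that the arrays of a group came from different animals, so p-values measure the spread between these arrays, which may be technical. RNA was from whole lung, where fewer cells of a type and less RNA per cell cannot be told apart.

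Wnt proteins are secreted, lipid-bearing ligands that bind Frizzled receptors, with Lrp5 or Lrp6 as co-receptor in the branch that acts through beta-catenin. Without a ligand, a complex built on Axin marks beta-catenin for destruction; with one, beta-catenin accumulates, enters the nucleus and acts with Tcf7, Lef1 and Tcf7l2 on target genes, of which Axin2 is a feedback inhibitor. Secreted frizzled-related proteins, including Frzb, and Wif1 bind Wnt ligands outside the cell, and most Dkk proteins act on Lrp5 and Lrp6. In the lung the pathway is known for its part in branching and in the upkeep of the alveolar epithelium, and it has been studied in the remodelling of pulmonary arteries.

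Values are log2 signals, on which a difference of 1 is a doubling. The median of an array lay between 7.802 and 8.005, and pairs of arrays correlated at r = 0.931 to 0.969 across probe sets, which are not independent replicates. Normoxia arrays 1 and 2 stood apart in the beta-actin control, where the 3′ probe set exceeded the 5′ one by 2.24 and 1.33 log2, against 0.51 to 0.87 on the other 9 arrays. Such a gap is a usual sign of shorter RNA or cDNA. All 8 markers of alveolar type II cells, among them Sftpc, and all 9 measured markers of endothelium exceeded the background level of 5.72 log2 in at least 1 group. That level was set so that 95% of 27 control probe sets for bacterial transcripts lay under it.

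Of the 36 genes, 31 had a mean above the background level, and Wnt8b, Wnt10a, Wnt11, Wnt16 and Dkk2 did not. Most genes pass this level, 12678 of the 14217 named ones. With limma and Benjamini-Hochberg adjustment over all 31042 probe sets, 0 of the 59 probe sets passed an adjusted p of 0.05 in hypoxia with SU5416 against normoxia, where 0.0612% of all probe sets passed. The count was also 0 in hypoxia against normoxia, against 0.00644% of all probe sets, and 0 in hypoxia with SU5416 against hypoxia, against 0.0258%. At an unadjusted p of 0.05, 8, 7 and 9 of the 59 passed in these comparisons, beside 12.4%, 11% and 7.47% of all probe sets. The smallest adjusted p among them was 0.0915, 0.214 and 0.277, taking the comparisons in the same order.

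The differences were centred close to 0. Over the 31 genes above background, the median log2 difference between hypoxia with SU5416 and normoxia was -0.0017, with 14 genes higher and 17 lower, beside -0.010 over the 12678 genes above background. Between hypoxia and normoxia it was 0.054 (18 higher, 13 lower), beside 0.0018. Between hypoxia with SU5416 and hypoxia it was -0.022 (14 higher, 17 lower), beside -0.0067. By role, the medians for hypoxia with SU5416 against normoxia were -0.0017 for the 9 ligands above background, -0.084 for the 9 receptors, 0.12 for the 7 secreted inhibitors above background and -0.047 for the 6 proteins inside the cell. The median SD between arrays within groups was 0.215 for these genes and 0.198 for all genes above background.

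**Figure D1:**
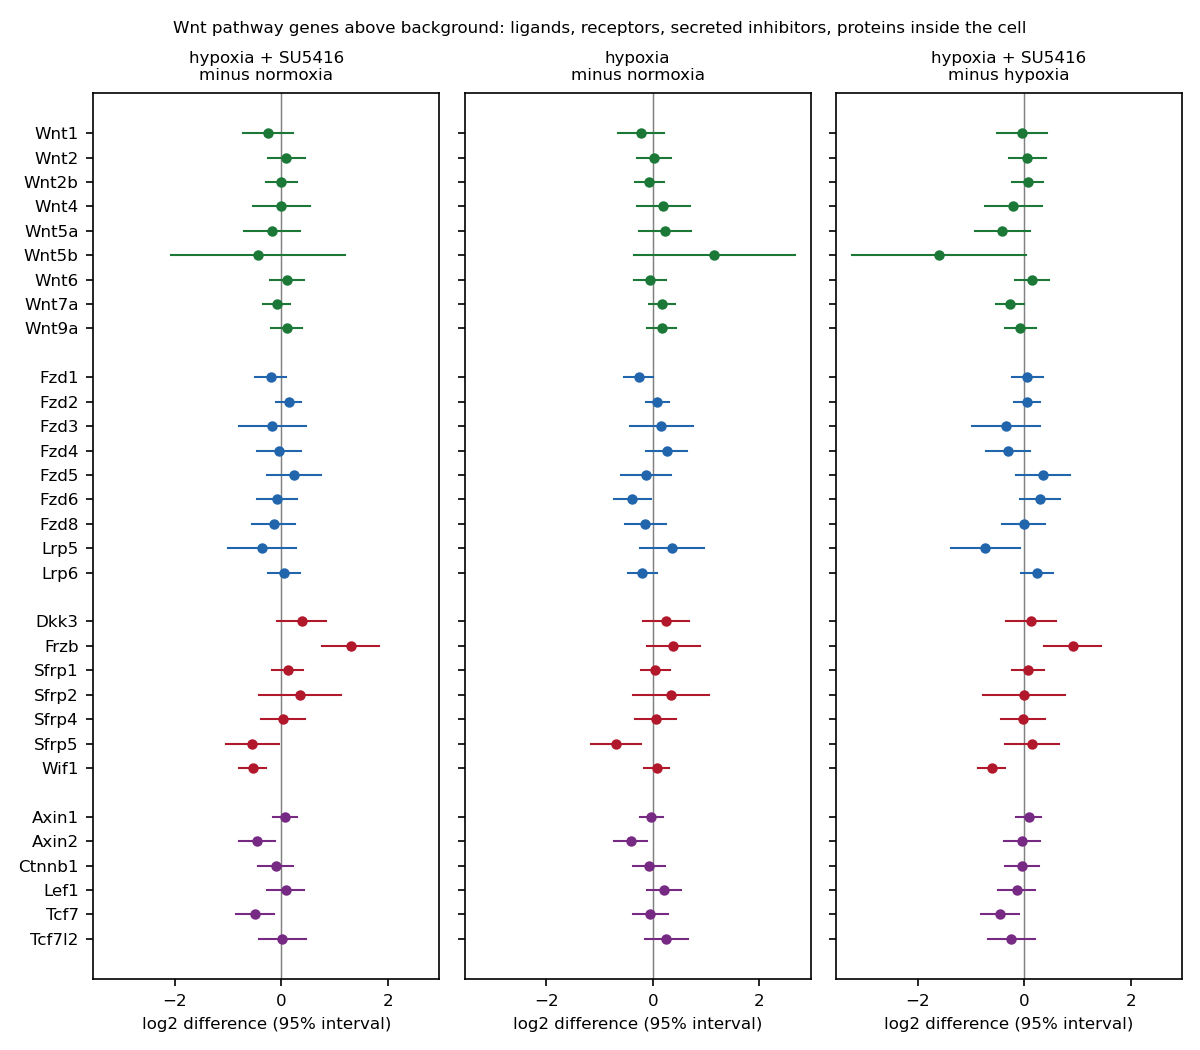
Log2 difference of each of the 31 genes above background in the 3 comparisons (x axes, the same range in each panel), with its 95% interval as a line, ordered by role and coloured green for ligands, blue for receptors, red for secreted inhibitors and purple for proteins inside the cell. Frzb lies farthest to the right in hypoxia with SU5416 against normoxia at 1.30, and Wnt5b has the widest intervals.

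The arrays of 2 groups were called apart where every array of one lay above every array of the other. In hypoxia with SU5416 against normoxia, 6 of the 59 probe sets were apart (3 higher, 3 lower), beside 11.9% of all probe sets (4.94% higher, 6.97% lower). The higher ones were both Frzb probe sets and 1 of Tcf7l2, and the lower ones were Wif1, Tcf7 and Axin2. In hypoxia against normoxia, 3 were apart (2 higher, 1 lower), beside 6.13% (2.05% higher, 4.08% lower). These were another Tcf7l2 probe set and 1 each of Wnt8b and Wnt11, the last of them lower. In hypoxia with SU5416 against hypoxia, 8 were apart (5 higher, 3 lower), beside 11.5% (6.27% higher, 5.25% lower). Both Frzb probe sets, the Tcf7l2 probe set that was apart from normoxia in hypoxia with SU5416, Lrp6 and a dim Ctnnb1 probe set were higher, and Wif1, Lrp5 and Wnt7a were lower.

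The genes whose representative arrays were apart between hypoxia with SU5416 and normoxia were Frzb, Wif1, Axin2 and Tcf7, and their promoters are shown for that reason. RefSeq windows on GRCr8, from 250 bases before to 50 bases after the annotated start, were matched for 25 of the 36 genes. Each is printed 5′ to 3′ on the strand of its gene. Capitals mark matches, on either strand, to CTTTGA, the core that Tcf and Lef proteins bind, to ACGTG and to GCGTG. Hypoxia-inducible factors bind both ACGTG and GCGTG, and the dioxin receptor binds GCGTG.
Frzb, chr3:85772047-85772346, minus strand: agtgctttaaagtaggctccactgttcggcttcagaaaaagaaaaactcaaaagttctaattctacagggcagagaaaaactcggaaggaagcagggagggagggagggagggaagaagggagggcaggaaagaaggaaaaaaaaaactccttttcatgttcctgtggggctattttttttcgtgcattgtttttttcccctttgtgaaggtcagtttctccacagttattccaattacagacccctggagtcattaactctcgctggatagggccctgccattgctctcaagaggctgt
Wif1, chr7:58433329-58433628, plus strand: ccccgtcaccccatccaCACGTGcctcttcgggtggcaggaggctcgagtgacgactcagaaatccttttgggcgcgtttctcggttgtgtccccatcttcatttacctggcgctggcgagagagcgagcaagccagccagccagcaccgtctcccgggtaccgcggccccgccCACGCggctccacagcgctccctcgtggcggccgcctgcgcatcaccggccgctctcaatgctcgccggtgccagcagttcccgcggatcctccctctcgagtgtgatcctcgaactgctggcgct
Axin2, chr10:94398535-94398834, plus strand: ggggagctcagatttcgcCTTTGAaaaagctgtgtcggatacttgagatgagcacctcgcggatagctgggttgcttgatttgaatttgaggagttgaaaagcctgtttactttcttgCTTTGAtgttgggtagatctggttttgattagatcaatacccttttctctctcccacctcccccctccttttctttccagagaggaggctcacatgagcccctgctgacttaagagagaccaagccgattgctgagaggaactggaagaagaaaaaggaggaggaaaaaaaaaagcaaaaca
Tcf7, chr10:36954230-36954529, minus strand: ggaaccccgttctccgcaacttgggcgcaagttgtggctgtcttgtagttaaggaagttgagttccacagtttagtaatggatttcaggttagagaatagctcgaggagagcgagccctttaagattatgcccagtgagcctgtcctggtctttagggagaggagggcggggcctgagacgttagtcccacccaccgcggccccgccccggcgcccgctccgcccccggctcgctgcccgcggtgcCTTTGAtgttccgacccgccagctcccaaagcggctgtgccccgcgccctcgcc
The Tcf and Lef core was in 2 of the 25 windows, those of Axin2 (first bases at -232 and -132 relative to the start) and Tcf7 (-4), or 8%, beside 16.09% of all 33469 windows. The ACGTG core was in 4 of the 25, or 16%, beside 19.25%. The Wif1 window held ACGTG on both strands in overlapping matches whose first bases are at -233 and -232. The GCGTG core was in 13 of the 25, or 52%, beside 29.7%, and the Wif1 window held it at -76. These shares were not adjusted for base composition. None of the 3 cores was in the Frzb window. A match describes letters and is not a binding site.

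Among the secreted inhibitors, Frzb had the highest difference of any of the 36 genes in hypoxia with SU5416 against normoxia. Frzb, a secreted frizzled-related protein first described in cartilage, had 9.13, 8.53 and 8.90 log2 in hypoxia with SU5416, 8.46, 7.89, 7.83 and 7.59 in hypoxia, and 7.79, 7.26, 7.84 and 7.35 in normoxia. Every array of hypoxia with SU5416 lay above every array of the other groups, by a small margin over hypoxia array 1. The means were 8.86 ± 0.30 (SD, n = 3), 7.95 ± 0.37 (n = 4) and 7.56 ± 0.30 (n = 4), taking the groups in that order. The difference between hypoxia with SU5416 and normoxia was 1.30 (SE 0.24, 95% interval 0.77 to 1.83), a 2.46-fold higher signal, with limma's adjusted p = 0.0915. Against hypoxia it was 0.91 (0.38 to 1.44), 1.88-fold, with adjusted p = 0.442. Hypoxia stood 0.39 above normoxia, with overlapping arrays and adjusted p = 0.551. None of these passed the threshold.

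The second Frzb probe set gave the same order of groups. It had 9.16, 8.50 and 9.31 log2 in hypoxia with SU5416, 8.19, 8.14, 7.47 and 7.25 in hypoxia, and 7.65, 7.18, 7.78 and 7.17 in normoxia. The difference between hypoxia with SU5416 and normoxia was 1.54 (SE 0.29, 95% interval 0.89 to 2.19), 2.91-fold, with adjusted p = 0.1. Both probe sets read the same arrays and are not separate evidence. Markers of contractile and matrix-forming cells also stood higher in hypoxia with SU5416, although 0 of them passed an adjusted p of 0.05 by limma in any comparison. At an unadjusted p of 0.05, 7 of 9 smooth muscle and 3 of 9 fibroblast markers passed against normoxia, beside 13.2% of all genes above background. There, 8 of 9 smooth muscle markers stood higher, with a median difference of 0.40, beside 48.2% of all genes above background standing higher. The summed linear signal of that list was 18793 to 21429 in hypoxia with SU5416, 11253 to 16882 in hypoxia and 11505 to 14694 in normoxia. All 9 fibroblast markers stood higher, with a median of 0.29, and their sum was 33823 to 36051, 24331 to 34435 and 23027 to 32860 in these groups. No marker of either list was below background in every group. The part of these markers in the Frzb difference was not tested.

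Wif1, which binds Wnt ligands outside the cell, stood lower in hypoxia with SU5416 than in both other groups. It had 11.81, 12.01 and 11.59 log2 in hypoxia with SU5416, 12.49, 12.45, 12.34 and 12.37 in hypoxia, and 12.25, 12.34, 12.41 and 12.36 in normoxia. The hypoxia and normoxia arrays overlapped and lay within a narrow band, while the arrays of hypoxia with SU5416 lay below it and were spread more widely. The difference from normoxia was -0.54 (SE 0.11, 95% interval -0.79 to -0.28), 1.45-fold lower, with adjusted p = 0.121. The difference from hypoxia was -0.61 (-0.86 to -0.35), 1.53-fold lower, with adjusted p = 0.277, the smallest of the 59 probe sets in that comparison. Hypoxia stood 0.07 above normoxia (-0.16 to 0.31, adjusted p = 0.84). The summed signal of the 8 alveolar type II markers overlapped between groups, at 63534 to 65043 in hypoxia with SU5416, 55835 to 65093 in hypoxia and 57029 to 73659 in normoxia. That of 6 airway epithelium markers overlapped too, at 18869 to 23930, 20598 to 22158 and 16198 to 26887. In hypoxia with SU5416, 7 of the 8 type II markers stood higher than in hypoxia and 5 higher than in normoxia. Of all genes above background, 48.5% and 48.2% did. Against hypoxia, arrays were apart for 3 of the 6 airway markers (1 higher, 2 lower), beside 6.22% higher and 7.01% lower of genes above background. The part of these cells in the Wif1 difference was not tested.

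**Figure D2:**
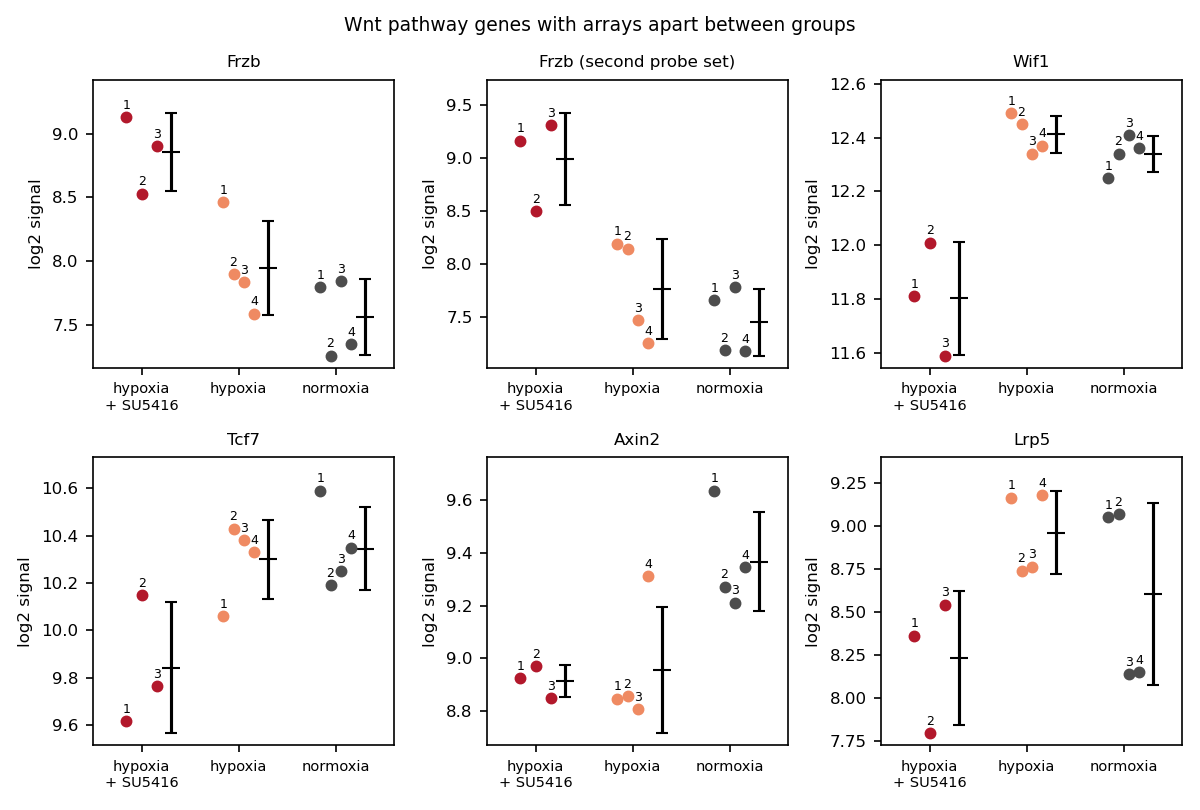
Log2 signal (y axis, a different range in each panel) of every array, numbered by replicate, in hypoxia with SU5416, hypoxia and normoxia, with the mean and SD of each group as a bar. Frzb stands highest and Wif1 lowest in hypoxia with SU5416, Axin2 overlaps between hypoxia and normoxia through hypoxia array 4, and the normoxia arrays of Lrp5 fall into a higher pair (1 and 2) and a lower pair (3 and 4).

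The other secreted inhibitors differed less or were more variable. Sfrp5, a frizzled-related protein, had 6.96, 6.56 and 6.54 log2 in hypoxia with SU5416, 6.20, 6.56, 6.45 and 6.96 in hypoxia, and 7.29, 6.92, 7.70 and 7.03 in normoxia. Both hypoxic groups overlapped normoxia by a single array each. Hypoxia stood 0.69 log2 below normoxia, with a 95% interval of -1.16 to -0.22 for the difference, 1.61-fold lower, and adjusted p = 0.329. Hypoxia with SU5416 differed from normoxia by -0.54 (adjusted p = 0.366). Dkk3, a Dickkopf relative whose action on Lrp receptors is disputed, had 10.57, 10.74 and 10.82 in hypoxia with SU5416, 10.82, 10.78, 10.72 and 9.99 in hypoxia, and 10.12, 10.30, 10.28 and 10.62 in normoxia. Its groups overlapped, and hypoxia with SU5416 stood 0.38 above normoxia (adjusted p = 0.488). A dimmer Dkk3 probe set above background gave -0.19 there, also with overlapping arrays. Sfrp1, Sfrp2 and Sfrp4, which also bind Wnt ligands, stood 0.12, 0.35 and 0.03 above normoxia in hypoxia with SU5416, with overlapping arrays. Sfrp2 had 9.86, 9.41 and 9.40 in hypoxia with SU5416, 9.76, 10.20, 8.96 and 9.30 in hypoxia, and 8.88, 8.97, 10.03 and 8.95 in normoxia, so that normoxia array 3 alone exceeded most hypoxic arrays. Without that array, Sfrp2 stood 0.63 above normoxia in hypoxia with SU5416 (adjusted p = 0.382). Dkk2 had a mean below background.

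Among the proteins inside the cell, Axin2 and Tcf7 stood below normoxia in hypoxia with SU5416. Axin2, the feedback inhibitor induced by beta-catenin, had 8.93, 8.97 and 8.85 log2 in hypoxia with SU5416, 8.85, 8.86, 8.81 and 9.31 in hypoxia, and 9.64, 9.27, 9.21 and 9.35 in normoxia. All 3 arrays of hypoxia with SU5416 and 3 of the 4 hypoxia arrays lay below every normoxia array. The difference between hypoxia with SU5416 and normoxia was -0.45 (95% interval -0.79 to -0.11), 1.37-fold lower, with adjusted p = 0.284. Between hypoxia and normoxia it was -0.41 (-0.72 to -0.10, adjusted p = 0.36). The hypoxic groups differed from each other by -0.04 (adjusted p = 0.971). Without normoxia arrays 1 and 2, the differences of the 2 hypoxic groups from normoxia were -0.36 and -0.32.

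Tcf7, a nuclear partner of beta-catenin that is also abundant in T cells, had 9.62, 10.15 and 9.76 log2 in hypoxia with SU5416, 10.06, 10.43, 10.38 and 10.33 in hypoxia, and 10.59, 10.19, 10.25 and 10.35 in normoxia. Hypoxia with SU5416 lay below every normoxia array and overlapped hypoxia through its array 2. The difference was -0.50 from normoxia (95% interval -0.86 to -0.15, adjusted p = 0.263) and -0.46 from hypoxia (adjusted p = 0.567). Hypoxia and normoxia differed by -0.04 (adjusted p = 0.942). Of 11 measured T cell markers, 10 stood lower in hypoxia with SU5416 than in normoxia (median -0.26), and 10 stood lower in hypoxia than in normoxia (median -0.31). Of the 12678 genes above background, 6559 and 6267 did. By limma, 0 of the 11 passed an adjusted p of 0.05 in any comparison. At an unadjusted p of 0.05, 2 and 3 of them passed against normoxia, beside 13.2% and 9.45% of genes above background. Between hypoxia with SU5416 and hypoxia, 7 of the 11 stood higher (median 0.06), beside 48.5% of genes above background, and Tcf7 stood lower there. The summed signal of the 11 overlapped, at 3289.1 to 3785.7 in hypoxia with SU5416, 3194.5 to 3582.9 in hypoxia and 3189.9 to 4760.7 in normoxia. The part of T cells in the Tcf7 difference was not tested. Lef1, the related nuclear partner, had 9.05, 9.55 and 9.20 in hypoxia with SU5416, 9.50, 9.55, 9.26 and 9.29 in hypoxia, and 9.37, 8.93, 9.30 and 9.16 in normoxia, all overlapping. Its second probe set ran the other way, at -0.31 in hypoxia with SU5416 and -0.32 in hypoxia against normoxia.

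Ctnnb1, which encodes beta-catenin itself, was read by 4 probe sets. The brightest had 12.59, 12.63 and 12.78 log2 in hypoxia with SU5416, 12.77, 12.68, 12.71 and 12.67 in hypoxia, and 13.06, 12.97, 12.54 and 12.54 in normoxia. The normoxia arrays lay on both sides of all hypoxic ones. Hypoxia with SU5416 stood 0.11 below normoxia on the log2 scale with all arrays and differed by 0.13 without normoxia arrays 1 and 2. The second probe set had 12.41, 12.45, 12.05 and 12.04 in normoxia, with the same split. The next had 10.62, 10.92 and 10.62 in hypoxia with SU5416, 10.74, 10.49, 10.17 and 10.47 in hypoxia, and 9.57, 10.04, 10.86 and 10.80 in normoxia, with the split reversed. Normoxia arrays 1 and 2 were those with the wide beta-actin gap. The dimmest probe set was below background in hypoxia, where it has only a bound. The part of RNA length in these splits was not tested.

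**Figure D3:**
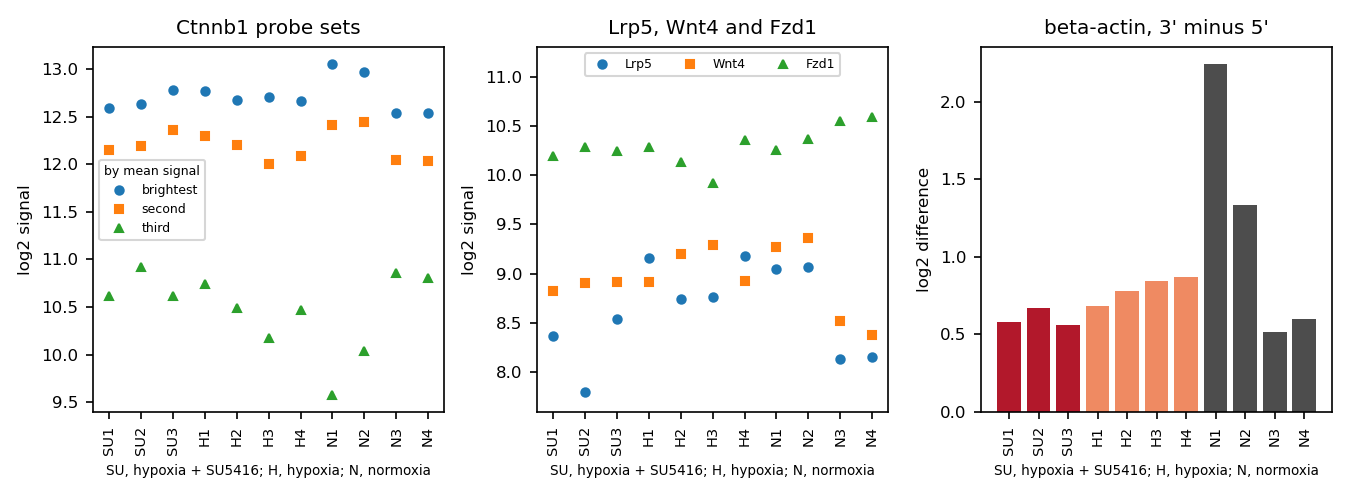
Log2 signal by array of the 3 brighter Ctnnb1 probe sets (left) and of Lrp5, Wnt4 and Fzd1 (middle), and the beta-actin 3′ minus 5′ difference in log2 (right, bars from 0); levels of different probe sets are not comparable. Normoxia arrays 1 and 2 have gaps of 2.24 and 1.33 and lie apart from normoxia arrays 3 and 4 in Ctnnb1, Lrp5, Wnt4 and Fzd1. They lie lower in Fzd1 and the third Ctnnb1 probe set, and higher in the others.

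Tcf7l2, a further nuclear partner, was read by 5 probe sets whose differences did not share a direction. The brightest had 9.96, 10.20 and 10.06 log2 in hypoxia with SU5416, 9.96, 10.36, 10.48 and 10.44 in hypoxia, and 10.50, 10.12, 9.72 and 9.88 in normoxia, and its groups overlapped. A dimmer one had 7.70, 7.38 and 7.70 in hypoxia with SU5416, 7.07, 6.95, 7.19 and 6.80 in hypoxia, and 7.11, 6.67, 6.36 and 6.96 in normoxia. On it, hypoxia with SU5416 lay above both other groups, by 0.82 over normoxia (95% interval 0.40 to 1.23, 1.76-fold, adjusted p = 0.137) and by 0.59 over hypoxia (adjusted p = 0.514). Another lay 0.43 higher in hypoxia than in normoxia with arrays apart (adjusted p = 0.288). A further one lay lower in both hypoxic groups, with differences of -0.45 in hypoxia with SU5416 and -0.49 in hypoxia, and its arrays overlapped. Which transcripts each probe set reads was not examined. Axin1, the constant scaffold of the destruction complex, differed from normoxia by 0.06 in hypoxia with SU5416 and -0.02 in hypoxia.

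Among the receptors, only Lrp5 and Lrp6, the co-receptors, had arrays apart in a comparison, both between hypoxia with SU5416 and hypoxia and in opposite directions. Lrp5 had 8.36, 7.80 and 8.54 log2 in hypoxia with SU5416, 9.16, 8.74, 8.76 and 9.18 in hypoxia, and 9.05, 9.07, 8.14 and 8.15 in normoxia. Hypoxia with SU5416 differed from hypoxia by -0.73 (95% interval -1.37 to -0.08), 1.66-fold lower, with adjusted p = 0.624, and the second probe set gave -0.67 with overlapping arrays. Its normoxia arrays split into the same pairs as for Ctnnb1. Against normoxia, the Lrp5 difference was -0.37 in hypoxia with SU5416 and 0.36 in hypoxia, and without normoxia arrays 1 and 2 these were 0.09 and 0.82. Lrp6 had 9.99, 9.92 and 9.82 in hypoxia with SU5416, 9.77, 9.71, 9.53 and 9.67 in hypoxia, and 10.15, 9.87, 9.63 and 9.80 in normoxia. It stood 0.24 higher in hypoxia with SU5416 than in hypoxia (adjusted p = 0.754), and the normoxia arrays overlapped both.

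The Frizzled receptors, which bind the ligands directly, overlapped between groups in all 3 comparisons. Fzd4, also the receptor for norrin in blood vessels, had 10.48, 10.67 and 10.75 log2 in hypoxia with SU5416, 11.14, 10.97, 10.99 and 10.66 in hypoxia, and 11.03, 10.87, 10.46 and 10.35 in normoxia. Its difference between hypoxia and normoxia was 0.26 (adjusted p = 0.601), and -0.03 on its second probe set. The normoxia arrays of the brighter Fzd4 probe set fell into the same pairs as those of Lrp5. So did those of the brightest Tcf7l2 and Wnt7a probe sets. Fzd1 had 10.19, 10.28 and 10.24 in hypoxia with SU5416, 10.29, 10.13, 9.92 and 10.36 in hypoxia, and 10.25, 10.37, 10.55 and 10.59 in normoxia, with a difference of -0.27 between hypoxia and normoxia (adjusted p = 0.468). Its normoxia arrays split into the same pairs in the reverse direction. Fzd6, known for its part in planar cell polarity, had the lowest difference of the Frizzled genes between hypoxia and normoxia, -0.39 (adjusted p = 0.416). The representative probe sets of Fzd2, Fzd3, Fzd5 and Fzd8 differed from normoxia by -0.17 to 0.23 in hypoxia with SU5416 and by -0.14 to 0.16 in hypoxia.

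Of the 13 ligands, 9 were above background, and Wnt7a was the only one of these 9 with arrays apart in any comparison. Wnt7a had 9.45, 9.50 and 9.44 log2 in hypoxia with SU5416, 9.63, 9.79, 9.76 and 9.73 in hypoxia, and 9.63, 9.76, 9.33 and 9.50 in normoxia. Hypoxia with SU5416 differed from hypoxia by -0.27 (95% interval -0.52 to -0.01, adjusted p = 0.644), and its second probe set by -0.10 with overlapping arrays. Wnt1, best known from brain development, had 9.34, 9.17 and 9.13 in hypoxia with SU5416, 9.16, 8.96, 9.09 and 9.81 in hypoxia, and 9.80, 9.28, 9.30 and 9.49 in normoxia, all overlapping.

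Wnt5b, a ligand of the branches that do not act through beta-catenin, varied most between arrays. It had 6.02, 6.43 and 8.21 log2 in hypoxia with SU5416, 9.43, 9.04, 8.95 and 6.52 in hypoxia, and 6.48, 7.90, 7.28 and 7.66 in normoxia. Hypoxia arrays 1 to 3 exceeded every other array, and hypoxia array 4 lay among the lowest. The difference between hypoxia and normoxia was 1.15 with a 95% interval of -0.36 to 2.67 (adjusted p = 0.561), and between hypoxia with SU5416 and hypoxia it was -1.60 (-3.24 to 0.04, adjusted p = 0.683). Without hypoxia array 4 these were 1.81 (0.64 to 2.98, adjusted p = 0.259) and -2.25 (-3.50 to -1.01, adjusted p = 0.439). Its within-group SD of 1.07 was the highest of the 31 genes above background. Wnt5a, the related ligand, differed from normoxia by -0.17 in hypoxia with SU5416 and by 0.23 in hypoxia, with overlapping arrays.

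Wnt4, a ligand known from kidney development, had 8.82, 8.90 and 8.92 log2 in hypoxia with SU5416, 8.91, 9.20, 9.29 and 8.92 in hypoxia, and 9.27, 9.37, 8.52 and 8.37 in normoxia, with normoxia in the same pairs as Lrp5. Wnt2, a ligand of the embryonic lung mesenchyme, differed from normoxia by 0.09 in hypoxia with SU5416 and 0.03 in hypoxia. Its second probe set gave -0.21 and -0.08. Wnt2b, Wnt6 and Wnt9a differed from normoxia by at most 0.17 log2 in either hypoxic group. Wnt11 had 4.74, 5.08 and 4.69 in hypoxia with SU5416, 3.61, 4.13, 4.78 and 3.73 in hypoxia, and 6.16, 5.75, 5.46 and 4.96 in normoxia. Its group means were all below background, so no fold is given, although its arrays were apart between hypoxia and normoxia (adjusted p = 0.214). Wnt8b, apart in the same comparison, was also below background in every group.

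The pathway was also read from 3 wider lists, and 0 genes of any list passed the threshold in any of the 3 comparisons by limma. Of all genes above background, 0.0868% passed in hypoxia with SU5416 against normoxia, 0% in hypoxia against normoxia and 0.0394% in the comparison of the hypoxic groups. At an unadjusted p of 0.05, 2 of 19 measured genes for Wnt secretion and modulation outside the cell passed in hypoxia with SU5416 against normoxia, as did 4 of 36 for transduction inside the cell and 3 of 17 for genes induced by Wnt and beta-catenin. Those 3 are Axin2 and Tcf7, already described, and Lgr5, which is also among the 2 for modulation outside the cell. Over all genes above background 13.2% did. The median differences of the lists were 0.0018, -0.14 and 0.010. In the list for transduction inside the cell, 26 of 36 genes stood lower, in hypoxia with SU5416 against normoxia and also against hypoxia, comparisons that share the arrays given SU5416. Of the 12678 genes above background, 6559 and 6523 stood lower in these comparisons. The list also holds genes that restrain the pathway, such as the co-repressor Tle1, so the count gives no direction for signalling. Arrays of hypoxia with SU5416 and normoxia were apart for 6 genes of that list (0 higher, 6 lower), for 4 of the secretion and modulation list (3 higher, 1 lower) and for 4 of the induced list (0 higher, 4 lower). Of all genes above background, 7.04% were apart and higher and 7.1% apart and lower. Against hypoxia, the counts were 0 higher and 8 lower for transduction, 1 and 2 for secretion and modulation, and 1 and 3 for induced genes, beside 6.22% and 7.01% of genes above background. Between hypoxia and normoxia they were 1 and 0, 3 and 0, and 1 and 0 in that order, beside 399 and 377 of the 12678 genes. Znrf3 is counted in the last 2 of these lists. At an unadjusted p of 0.05, 3 of 36, 4 of 19 and 2 of 17 passed between hypoxia and normoxia, beside 9.45% of genes above background.

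Tle1, a co-repressor that binds Tcf proteins, had 8.99, 9.04 and 9.10 log2 in hypoxia with SU5416, 9.10, 9.24, 9.53 and 9.63 in hypoxia, and 9.90, 9.92, 9.65 and 9.52 in normoxia. All arrays of hypoxia with SU5416 lay below normoxia, with a difference of -0.71 (adjusted p = 0.126). Its relative Tle4 differed by -0.40 (adjusted p = 0.279) and Daam1, which links Dishevelled to the cytoskeleton, by -0.36 (adjusted p = 0.228). The remaining transduction gene past the unadjusted threshold, Gsk3b, ran the other way. It stood 0.46 above normoxia in hypoxia with SU5416, with overlapping arrays (adjusted p = 0.344). Lgr5, a receptor for R-spondins and a target of the pathway, had 6.19, 6.12 and 6.22 in hypoxia with SU5416, 6.62, 7.06, 7.07 and 6.90 in hypoxia, and 7.24, 7.27, 7.07 and 6.40 in normoxia. In hypoxia with SU5416 it lay below every array of both other groups, with differences of -0.82 against normoxia (adjusted p = 0.173) and -0.74 against hypoxia (adjusted p = 0.451). Lgr6, its relative, stood higher than normoxia by 0.74 in hypoxia with SU5416 (adjusted p = 0.207) and by 0.59 in hypoxia (adjusted p = 0.36). Znrf3, a ligase that removes Frizzled receptors from the cell surface, differed by -0.51 between hypoxia with SU5416 and hypoxia (adjusted p = 0.375).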

How the data were processed

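Whole-lung RNA was measured on 11 Affymetrix rat arrays. The deposited values are log2 signals, 1 per probe set and array; RMA is named in the submitters' processing notes, without a version. The 2% trimmed mean of linear values is 500 on every array and distributions differ between arrays, so the summarisation is uncertain. Values were used as deposited.

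The 57 control probe sets were set aside. Of 31042 others, 20826 had 1 gene symbol, 436 several and 9780 none. One limma 3.58.1 model (R 4.3.3, lmFit and eBayes, a mean per group, 8 residual degrees of freedom, two-sided) gave the 3 comparisons, with Benjamini-Hochberg adjustment over all probe sets and calls below 0.05. Standard errors of log2 differences had medians of 0.19 to 0.20; the number of arrays limits the precision.

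Members and lists were chosen with earlier results of these data known. Values on every array are given for genes called, for genes apart by at least 0.5 log2, for the 2 brightest of each role, and for Axin2, Lef1, Tcf7 and Ctnnb1. Others given in full (Sfrp2, Sfrp5, Wnt4, Wnt5b, Wnt11, Lrp6, Tcf7l2 and dimmer probe sets) were chosen after their values were seen. From the lists, Tle1, Tle4, Daam1, Lgr5, Lgr6 and Znrf3 were picked among genes with arrays apart, after their values were seen. They are not always those of largest difference. Draxin, below background in normoxia, was apart by 0.89 log2 between hypoxia with SU5416 and normoxia and is not drawn on. Nor is Gsk3a, which was apart by -0.55 between hypoxia with SU5416 and hypoxia. Gsk3b was added although its arrays overlapped. Replicate numbers pair no samples: deviations of same-numbered arrays correlated at -0.125 to 0.128 over 10 pairs. The fit was tested on simulated data. Alternatives were other normalizations, filters, variance models, array weights, a replicate block and leaving out arrays.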

Additional observations from a re-analysis of the deposited data

Results flagged for a closer look

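In the groups of 4 arrays, 1 array stood far from the other 3, past Dixon's 95% critical value, in 6 of 72 tests, where chance gives about 3.6. Of these, 4 were on hypoxia array 4. There Wnt5b had 6.52 log2, against 8.946 to 9.433 on the other hypoxia arrays, and Dkk3 had 9.989, against 10.72 to 10.82. Axin2 had 9.313 on that array, against 8.807 to 8.858, and Wnt2b had 9.124, against 9.076 to 9.084. Without that array, the difference between hypoxia and normoxia was 1.81 for Wnt5b (limma's adjusted p = 0.259, against 1.15 with all arrays), -0.08 for Wnt2b (adjusted p = 0.866), -0.53 for Axin2 (adjusted p = 0.207) and 0.44 for Dkk3 (adjusted p = 0.277). In normoxia, Axin1 had 10.18 on array 4, against 9.99 to 10.01, and Sfrp2 had 10.03 on array 3, against 8.875 to 8.973. Without these arrays, the difference between hypoxia and normoxia was 0.02 for Axin1 (adjusted p = 0.958), against -0.02 with all arrays, and 0.62 for Sfrp2 (adjusted p = 0.487), against 0.35.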

How the results depend on the processing

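The number of Wnt pathway probe sets past the threshold stayed at 0 in all 3 comparisons except in hypoxia with SU5416 against normoxia. There it was 3 (both Frzb probe sets and Wif1) without probe sets below the median, with adjusted p = 0.0226 for Frzb and 0.0374 for Wif1. It was also 3 with limma's trend and robust options (0.0380 and 0.0377), and 1 at an adjusted p of 0.10. Over all probe sets, the 19, 2 and 8 calls (hypoxia with SU5416 against normoxia, hypoxia against normoxia, hypoxia with SU5416 against hypoxia) became 43, 1 and 14 with quantile normalization, 19, 1 and 8 with median centring, 58, 2 and 14 without probe sets below background, and 214, 0 and 12 without those below the median. They became 8, 1 and 11 with only the groups compared, 145, 1 and 16 with trend and robust options, 32, 2 and 24 with array weights, and 108, 2 and 18 at 0.10. Alternatives chosen after seeing the data gave 25, 99 and 16 without normoxia arrays 1 and 2, and 14, 4 and 18 with the beta-actin gap as a covariate. Leaving out 1 array gave 8 to 38, 1 to 14 and 7 to 15, with 38 and 14 reached without hypoxia array 4.

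The replicate block gave 6, 1 and 6 calls, a median of -0.099 over the Wnt pathway genes in hypoxia with SU5416 against normoxia, and differences of 0.015 for Axin2 and 0.060 for Wnt1 between the hypoxic groups, where it turned the sign. The median for hypoxia against normoxia was 0.14 with median centring, which moves the difference of every gene in a comparison by the same amount. The medians over all genes under these settings are not given here. Leaving out 1 array moved the median between -0.125 and 0.061 for hypoxia with SU5416 against normoxia and between -0.053 and 0.023 against hypoxia.

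Of 777 alternatives over 36 single-gene differences, 37 turned the sign, in 13 differences. For hypoxia with SU5416 against normoxia, Ctnnb1 was 0.127 without normoxia arrays 1 and 2, 0.066 with the covariate and 0.089 as a mean of its probe sets. Fzd4 was 0.228, 0.157 and 0.058 in these, 0.0042 with median centring, 0.064 with array weights and -0.153 to 0.073 leaving out 1 array. Lrp5 and Wnt7a were 0.089 and 0.050 without normoxia arrays 1 and 2, and Lef1 was -0.116 as a mean and -0.062 to 0.185 leaving out 1 array. For hypoxia against normoxia, Ctnnb1 was 0.020 with median centring, 0.0039 with weights, 0.168 without normoxia arrays 1 and 2, 0.048 with the covariate and -0.149 to 0.024 leaving out 1 array. Tcf7 was 0.045, 0.024 with the covariate and -0.097 to 0.037, and Lef1 as a mean was -0.053. Between the hypoxic groups, Ctnnb1 was 0.018 with the covariate and 0.436 as a mean, Axin2 and Wnt1 were 0.00040 and 0.0097 with the covariate, and leaving out 1 array gave -0.091 to 0.078 for Axin2, -0.063 to 0.214 for Dkk3, -0.023 to 0.125 for Fzd1 and -0.135 to 0.15 for Wnt1. The cause of these changes was not tested.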

Other observations

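Markers of immune cells were read beside the Wnt pathway genes. Of 7 measured macrophage markers, 6 stood higher in hypoxia with SU5416 than in normoxia, with a median log2 difference of 0.69, beside 48.2% of all genes above background standing higher. Among the 7, arrays were apart and higher for 4 (7.04% of genes above background) and for 1, Adgre1, lower, with a difference of -0.87 (7.1% of genes above background). Adgre1 was named after its values were seen. Of 5 measured B cell markers, 4 stood lower in hypoxia with SU5416 than in normoxia (median -0.52), as did 5 in hypoxia (median -0.53). Of the 12678 genes above background, 6559 and 6267 stood lower in these comparisons. The summed linear signal of the 5 was 757.56 to 956.04 in hypoxia with SU5416, 781.82 to 1168.5 in hypoxia and 1449.6 to 1561.5 in normoxia. Both hypoxic groups thus lay below every normoxia array. By limma, 0 markers of either list passed an adjusted p of 0.05 in these comparisons, and at an unadjusted p of 0.05, 5 macrophage markers and 3 B cell markers passed in hypoxia with SU5416 against normoxia, beside 13.2% of genes above background.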
